A study of Homo sapiens with 2 samples.

Results

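The HOX genes encode homeodomain transcription factors, and they were taken as all genes whose symbol is HOX followed by a cluster letter from A to D and a paralogue number. Of 39 such genes, 27 had an array sequence that carries their symbol alone, 2 shared 1 sequence and 10 were not analysed here, among 18417 genes measured in all. The cells were HT1080, a human fibrosarcoma line grown with 10% fetal calf serum, and plated for 24 h on plastic that carried either BSA or rLCC111, the latter at 1 µg per well. rLCC111 is a recombinant fragment made of the coiled-coil regions of the mouse laminin α1, β1 and γ1 chains, with some laminin EGF-like modules of each chain. It was purified from the medium of transfected human kidney cells. Each coating was measured on 1 human gene array, so no difference has a replicate check and no p-value is given. HT1080 is a single cell line, and a lower level in bulk RNA cannot tell fewer expressing cells from less RNA per cell.

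Human HOX genes lie in 4 clusters, and genes with the same number in different clusters, called paralogues, descend from 1 ancestral gene. During development the genes are switched on along the body axis in the order in which they lie in a cluster, low numbers towards the head and high numbers towards the tail and the ends of the limbs. Adult fibroblasts keep a combination of active HOX genes that records the site of the body from which they came, and this is what is meant by positional identity. HOX proteins bind DNA together with cofactors of the TALE class, the PBX and MEIS proteins among them, while Polycomb complexes hold silent HOX genes shut and Trithorax complexes keep active ones open.

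All 10 HOXB genes and all 9 HOXD genes had a sequence of their own, as did 7 of the 9 HOXC genes. HOXC4 and HOXC6 shared 1 sequence, which the rule leaves out. Of the 11 HOXA genes, HOXA2 had a sequence of its own, and the other 10 were not analysed here. No HOX gene had a second sequence, so the difference of a HOX gene rests on 1 value per array. HOXC4, HOXC5 and HOXC6 can be transcribed from a start that they share. The window of 300 bases around that start is printed to show this for the genes of the central HOXC cluster, at chr12:54016638-54016937 on the plus strand of GRCh38.p14, from RefSeq, 5′ to 3′. HOXC4 and HOXC5 have the same window in the table. The window of HOXD10, at chr2:176116528-176116827 on the plus strand, is printed beside it, because HOXD10 had the largest difference of the HOXD genes. Capitals mark each CCAAT, the box bound by the factor NF-Y, on either strand (ATTGG on the strand shown).
HOXC4 and HOXC5 start: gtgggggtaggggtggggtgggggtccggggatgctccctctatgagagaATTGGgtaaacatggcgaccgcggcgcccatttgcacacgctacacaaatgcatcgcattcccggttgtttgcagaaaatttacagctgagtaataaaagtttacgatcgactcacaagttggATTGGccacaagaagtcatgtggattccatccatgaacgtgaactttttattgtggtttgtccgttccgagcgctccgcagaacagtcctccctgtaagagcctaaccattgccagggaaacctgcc
HOXD10 start: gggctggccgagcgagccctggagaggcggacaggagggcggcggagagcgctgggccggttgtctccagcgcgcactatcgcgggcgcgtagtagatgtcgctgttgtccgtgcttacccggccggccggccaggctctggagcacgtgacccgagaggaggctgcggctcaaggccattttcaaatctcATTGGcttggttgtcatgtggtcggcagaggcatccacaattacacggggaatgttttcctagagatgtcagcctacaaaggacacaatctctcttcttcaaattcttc
Of the 27 HOX genes with a sequence on the array, 11 had a start window in the RefSeq table. They are HOXA2, HOXB1, HOXC5 and HOXD genes, while HOXC8, HOXC9, HOXC10 and HOXB3 had no window. CCAAT was found in 9 of the 11 windows, against 34.6% of all 34943 windows. TATAAA was found in the window of HOXD13, against 11.6% of all windows, and TGATNNAT, the core of a joint site of PBX and HOX proteins, in those of HOXD11, HOXA2 and HOXB1, against 7.42%. All were searched on both strands, and in these 11 windows no match shared a base with a match of another motif. The windows held between 4 CpG pairs, at HOXD4, and 36, at HOXD1, with a median of 23, against a median of 14 over all windows. These matches describe the letters and are not evidence of binding.

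The clusters also hold microRNA genes, and those measured were MIR10A and MIR196A1 in HOXB, MIR196A2 in HOXC and MIR10B in HOXD. MIR196A1 and MIR196A2 are shown because they lie in different clusters and give the same mature miR-196a, whose known targets include HOXB8 and HOXC8. Seeds, bases 2 to 8, are in capitals, and the sequences are from RefSeq, GRCh38.p14.
miR-196a-5p from MIR196A1 (chr17:48632532-48632553, minus strand): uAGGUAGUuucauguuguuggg
miR-196a-5p from MIR196A2 (chr12:53991762-53991783, plus strand): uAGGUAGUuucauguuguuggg
miR-10a-5p from MIR10A (chr17:48579904-48579926, minus strand): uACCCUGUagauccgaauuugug
miR-10a-3p from MIR10A (chr17:48579864-48579885, minus strand): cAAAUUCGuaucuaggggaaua
miR-10b-3p from MIR10B (chr2:176150368-176150389, plus strand): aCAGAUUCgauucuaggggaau
The seed AGGUAGU is common to both copies of miR-196a, and the 3 other mature sequences printed have seeds of their own.

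HOX genes of the HOXB, HOXC and HOXD clusters had levels above that of genes taken as silent, among them 9 of the 10 HOXB genes. The array gives log2 expression levels, and the limit of silent genes was set at 6.63, the level that 95% of 373 olfactory, taste and vomeronasal receptor genes do not exceed. On both arrays 21 of the 27 HOX genes were above this limit, against 66.7% of all 18417 genes, so passing it does not set the HOX genes apart. The 21 are 9 HOXB genes, 5 of 7 HOXC genes and 7 of 9 HOXD genes, but not HOXA2, at 5.47 on BSA and 5.52 on rLCC111. The count ranged from 23 with the 90th percentile of the receptor genes as the limit, 6.11, to 15 on both arrays with the 99th, 7.59. HOXB13, which marks the tail end of the axis and the prostate, was the nearest below the limit, at 6.63 and 6.47, and HOXB1 the nearest above it, at 6.93 and 7.07.

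A stricter reference was taken from 13 other homeobox genes, among them genes that pattern the gut, the brain and the tail. They are the ParaHox genes (CDX, GSX and PDX) and the EVX, MEOX, GBX and MNX genes. Of these, 11 were also above the limit, and their mean levels reached 8.89, at GBX2, a gene of the midbrain and hindbrain border. GSX1, a forebrain gene, stood at 8.58 on both arrays, and MNX1, a motor neuron and pancreas gene, at 8.21 and 8.23. For the comparison of the coatings the list also held GDF11, which is not a homeobox gene and was at 8.36 on both arrays. The 14 genes had a median difference of 0.01, and none was at least 1.5-fold different, against 1.62% of all genes. Their largest differences above the limit were -0.19 at MEOX2, 0.15 at EVX2 and 0.10 at PDX1. HOXB2, HOXB9 and HOXD10 were above 8.89 on both arrays, and HOXB4 and HOXD9 on BSA alone. The level of a sequence also depends on how well its probes bind, so no order of abundance among HOX genes is drawn from these values.

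**Figure D1:**
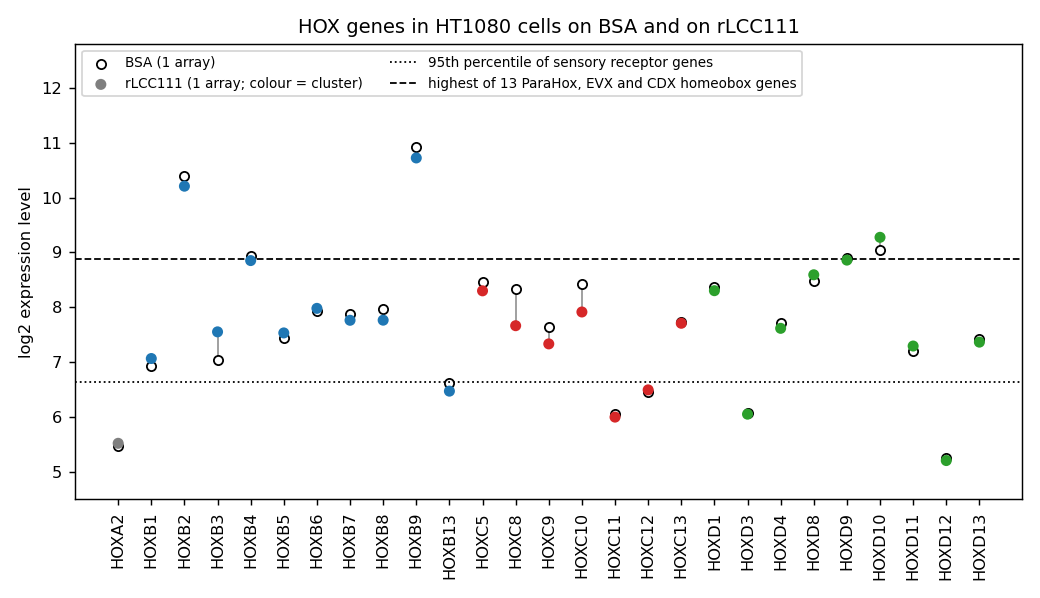
Log2 expression level (vertical) of 27 HOX genes (horizontal) on BSA (open circles) and on rLCC111 (filled circles, coloured by cluster), 1 array per coating. The dotted line is the limit of 6.63 and the dashed line the level of 8.89 at GBX2; HOXB2 and HOXB9 lie far above both, and HOXA2, HOXB13, HOXC11, HOXC12, HOXD3 and HOXD12 at or below the dotted line.

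The genes above the limit spanned groups from both ends of the axis. In HOXB, levels above the limit ran without a gap from group 1 to group 9, with HOXB2, a gene of the hindbrain and the neck region, at 10.39 on BSA and 10.21 on rLCC111. HOXB4, known for its use in expanding blood stem cells, was at 8.94 and 8.85. HOXB5, HOXB6 and HOXB7, genes of the trunk, were between 7.44 and 7.98 on the arrays. HOXB9, a gene of the thoracic region, was at 10.92 and 10.72. In HOXC, the genes above the limit were HOXC5, HOXC8, HOXC9, HOXC10 and HOXC13, and between them HOXC11, at 6.06 on BSA, and HOXC12, at 6.46 and 6.49, were below it. In HOXD, HOXD1, HOXD4, HOXD8, HOXD9, HOXD10, HOXD11 and HOXD13 were above it, while HOXD3, at 6.08 and 6.05, and HOXD12, at 5.25 and 5.21, were not. HOXD9, at 8.91 and 8.86, and HOXD10, at 9.05 and 9.28, pattern the limb and the lower trunk. By paralogue group, all 3 measured genes of group 8 and all 3 of group 9 were above the limit, as were 2 of 3 of group 13, and neither of the 2 of group 12. This map holds for the limit of 6.63. With the 99th percentile of the receptor genes, 7.59, as the limit, the HOXB run had gaps. HOXB1, HOXB3 and HOXB5 were then below the limit on both arrays, as were HOXD11 and HOXD13.

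All 27 HOX genes were within 2-fold between the coatings. No HOX gene was at least 2-fold higher or lower on rLCC111, against 0.326% of all 18417 genes and 0.45% of the 12665 genes whose brighter array exceeded the limit. At so low a background the count of 0 is no result about HOX genes. At 1.5-fold, HOXC8 was lower and no HOX gene was higher, against 0.543% of all genes lower and 1.08% higher, and 0.726% and 1.35% of the genes above the limit. In either direction 1.62% of all genes and 2.08% of those above the limit passed 1.5-fold. Over the 27 genes the differences, rLCC111 minus BSA on the log2 scale, ran from -0.67 at HOXC8 to 0.52 at HOXB3 with a median of -0.05, and the median of all genes was 0.00. Differences were below 0 in 18 HOX genes and above 0 in 9, against 46.6% and 46.2% of all genes. Among the 21 HOX genes above the limit 14 were below 0 and 7 above, against 50.3% and 46.7% of the genes of the array above it. After median centring 21 were below 0 and after quantile normalization 22, settings that lowered the median of all genes to -0.08 and -0.06. The SD of the differences of the receptor genes, 0.18, gives a scale for the scatter of dim sequences and is not a replicate error. By this scale 19 of 27 HOX genes and 76.5% of all genes differed by less than 1 SD.

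HOXC8, HOXC9 and HOXC10, which are neighbours in the HOXC cluster, were all lower on rLCC111. HOXC8, a gene of the thoracic trunk, stood at 8.34 with BSA and at 7.66 with rLCC111. Its log2 difference of -0.67, a fold of 0.627, was lower than that of all but 70 of the 18417 genes. HOXC10, a gene of the lumbar region and the hindlimb, was at 8.42 and 7.91, a log2 difference of -0.51 and a fold of 0.703, and 170 genes had a lower one. HOXC9, which lies between HOXC8 and HOXC10, was at 7.64 and 7.33, a log2 difference of -0.30 and a fold of 0.810. These are the 3 lowest differences among the HOX genes measured.

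The other HOXC genes had smaller differences. HOXC5 was at 8.46 and 8.30, a log2 difference of -0.16, and the sequence shared by HOXC4 and HOXC6 at 7.67 and 7.56, a difference of -0.11. HOXC13, which is active in hair and nails, was at 7.73 and 7.71, a difference of -0.02. The differences of HOXC11 and HOXC12, both below the limit, were -0.06 and 0.03. The HOXC median was -0.16, and -0.30 for the 5 genes above the limit, beside -0.00 for the 12665 genes of the array above it. Of the 7 HOXC genes 6 were below 0, beside 46.6% of all genes. With median centring or quantile normalization HOXC12 also fell below 0. Both rescalings lower the median difference of all genes, to -0.08 and -0.06. The count of 7 below 0 under them is therefore no added evidence about HOXC.

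**Figure D2:**
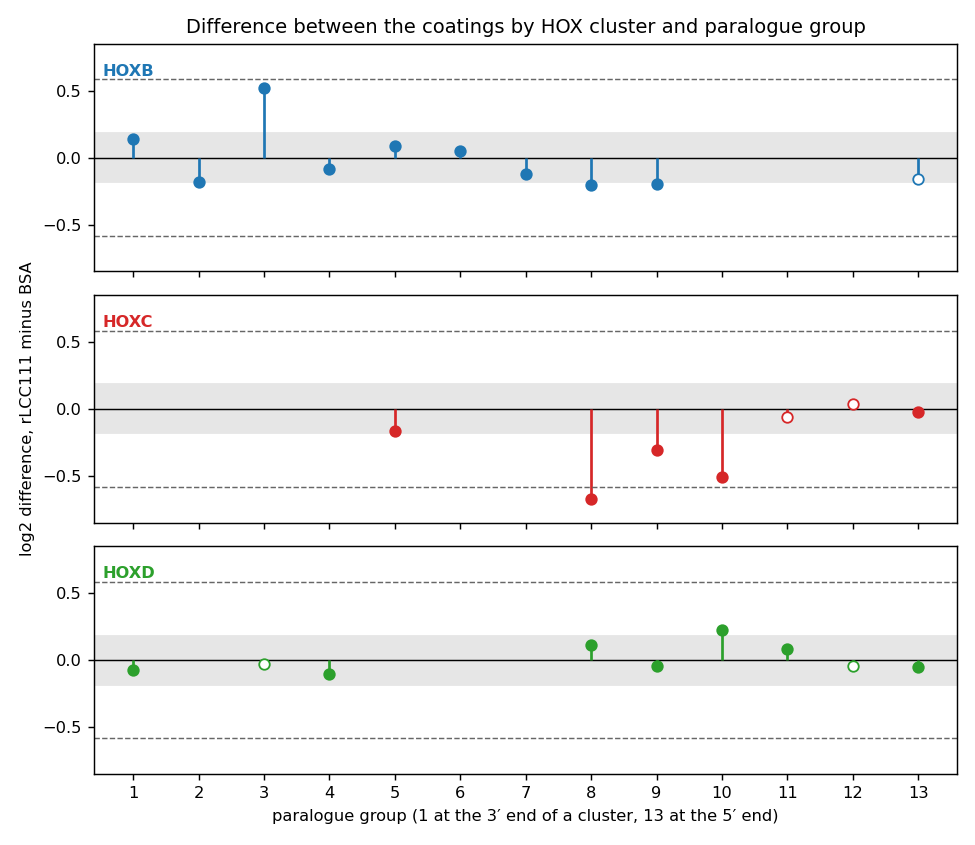
Log2 difference, rLCC111 minus BSA (vertical), of the HOXB, HOXC and HOXD genes by paralogue group (horizontal), 1 array per coating; open points are genes with both arrays at or below the limit of 6.63, the grey band is 1 SD of the receptor genes, 0.18, and dashed lines mark 1.5-fold. HOXC8, HOXC9 and HOXC10 lie below the band in a row, HOXC8 beyond the lower dashed line, and HOXB3 lies farthest above it.

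HOXB3 was the HOX gene with the largest difference upwards. This gene of the hindbrain and of blood progenitors had 7.03 on BSA against 7.55 on rLCC111, a log2 difference of 0.52 and a fold of 1.43, and 285 of 18417 genes had a higher one. Its neighbours in the cluster had differences of the other sign, -0.19 at HOXB2 and -0.09 at HOXB4, and its measured paralogue HOXD3 had -0.03 at a level below the limit. HOXB8 was at 7.97 and 7.76, a difference of -0.21, and HOXB9 had -0.19. The others were within 0.16, with 0.14 at HOXB1, 0.09 at HOXB5, 0.05 at HOXB6, -0.12 at HOXB7 and -0.16 at HOXB13, and the median of the 10 genes was -0.10.

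The 9 HOXD genes differed little between the coatings. HOXD10 had the largest difference, 0.23, a fold of 1.17, followed by HOXD8 with 0.11 and HOXD4 with -0.10. The other 6, which are HOXD1, HOXD3, HOXD9, HOXD11, HOXD12 and HOXD13, had differences from -0.07 to 0.08. The median was -0.04, with 3 genes above 0 and 6 below 0. HOXD1, a gene of the front end of the axis, was at 8.37 on BSA and 8.30 on rLCC111. HOXD11, which shapes the forearm, was at 7.21 and 7.29, and HOXD13, which shapes the digits, at 7.42 and 7.36.

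Measured paralogues had differences of opposite sign in several groups. In group 8, HOXC8 had a log2 difference of -0.67, HOXB8 of -0.21 and HOXD8 of 0.11, so that HOXC8 and HOXD8 were 0.79 apart. In group 10, HOXC10 had -0.51 and HOXD10 0.23, a gap of 0.74. In group 9 all 3 measured genes were below 0, at -0.19 for HOXB9, -0.30 for HOXC9 and -0.05 for HOXD9. In group 3, HOXB3 and HOXD3 were 0.54 apart. By class, groups 1 to 3 had a median of 0.01 over 6 genes, groups 4 to 8 of -0.10 over 9 and groups 9 to 13 of -0.05 over 12. These gaps have no replicate check either.

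Genes that flank the clusters were set beside them, taking the 5 nearest protein-coding genes on each side in the RefSeq order of GRCh38.p14. The flanks hold relatives of each other, such as CBX1, CBX3 and CBX5, heterochromatin proteins, and NFE2, NFE2L1, NFE2L2 and NFE2L3, transcription factors. Around HOXC, 7 of 9 measured flanking genes had a difference above 0 and the median was 0.15, while 6 of the 7 HOXC genes were below 0. Over all genes 46.2% were above 0 and 46.6% below it, and whether the cluster differs from its flanks was not tested. CALCOCO1, the nearest gene beyond HOXC13, had 8.34 on BSA against 8.69 on rLCC111, a difference of 0.35. SMUG1, a DNA repair enzyme beyond HOXC4, was at 8.91 and 8.79, a difference of -0.12. CBX5 had 0.15, HNRNPA1, an RNA-binding protein, 0.25, ATF7 0.12, ATP5MC2 0.04 and COPZ1 -0.15. NFE2 had 0.25 but was below the limit on both arrays, at 6.13 and 6.38. NPFF, a neuropeptide gene, had the largest difference, 0.59, but was also below the limit on both arrays, at 5.81 and 6.40.

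The flanks of the other clusters had medians nearer 0, with single genes farther from it. Around HOXB the 10 genes ran from -0.19 at CALCOCO2 to 0.14 at TTLL6 with a median of -0.00, so no flanking gene there had a difference as large as that of HOXB3. TTLL6 was below the limit on both arrays. Around HOXD the 9 measured genes had a median of 0.04. CHN1, a signalling protein, had -0.30 there, NFE2L2 -0.24 and IFT70B, a cilium protein below the limit on both arrays, -0.25. EVX2, the homeobox gene beside HOXD13, was at 7.37 and 7.52. Around HOXA, where HOXA2 was the member measured, the 10 genes had a median of 0.00. EVX1, the homeobox gene beyond HOXA13, was at 6.94 on both arrays, and CREB5, a transcription factor, had the largest difference, -0.38, which is farther from 0 than that of any HOXC flanking gene but NPFF. In HOXC and HOXD, 1 gene each of the 10, ATF7-NPFF and HNRNPA3, was not analysed here.

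**Figure D3:**
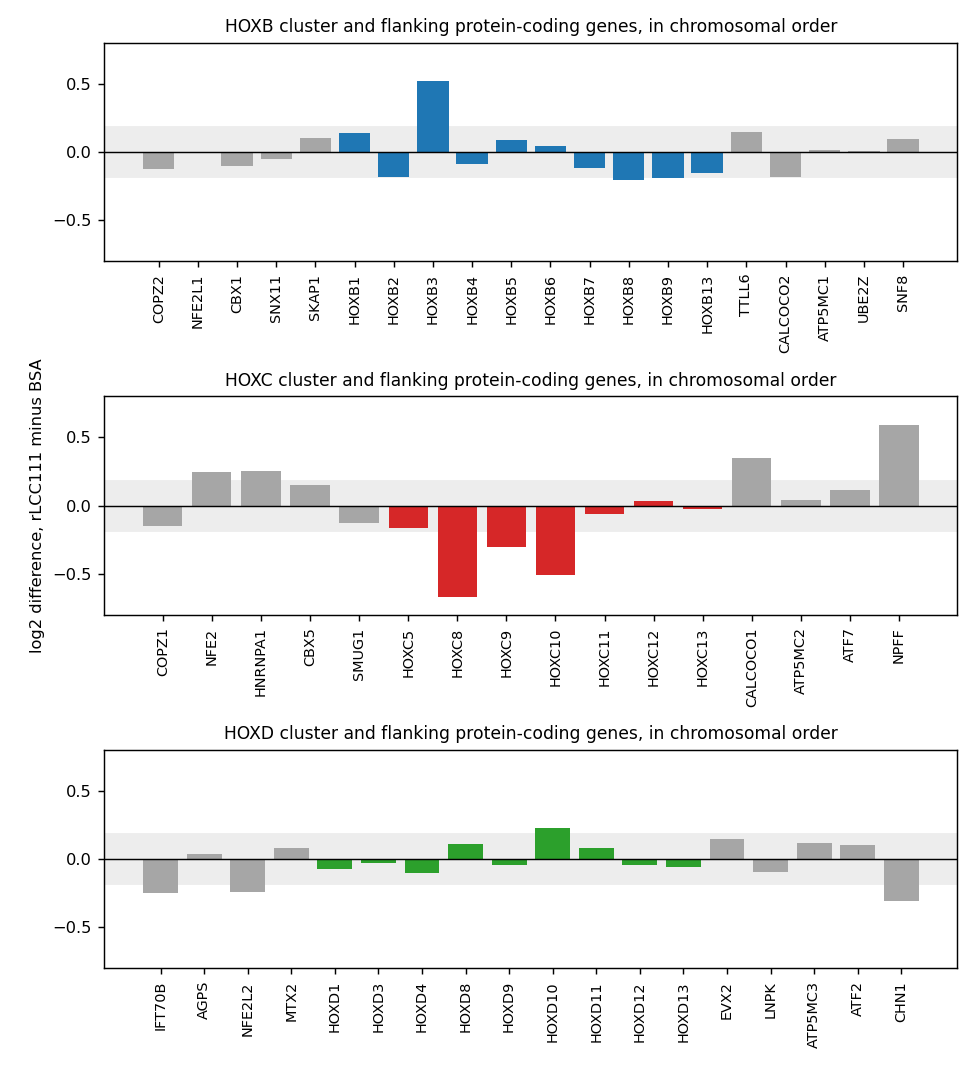
Log2 difference, rLCC111 minus BSA (vertical bars), of HOX genes (coloured) and of the nearest flanking protein-coding genes (grey) in their order along the chromosome, for the HOXB, HOXC and HOXD clusters, 1 array per coating; the grey band is 1 SD of the receptor genes, 0.18. HOXC5 to HOXC11 all point down, most at HOXC8, while 7 of the 9 grey bars beside HOXC point up. Over all genes 46.2% of the differences were above 0 and 46.6% below 0.

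Of 24 noncoding RNA genes of the clusters, 6 had a sequence of their own. HOXB-AS3, an RNA from the strand opposite HOXB5 and HOXB6, was at 7.26 on BSA and 7.24 on rLCC111. MIR196A1 was at 7.30 and 7.62, a log2 difference of 0.32. MIR196A2, the other source of the miR-196a printed above, was at 5.40 and 5.27, and MIR10A and MIR10B were at 3.96 and 3.55 on both arrays, all 3 below the limit. HOXA-AS2 was also below it, at 5.33 and 4.92. An array of this kind reads the precursor region of a microRNA and not the mature form, so these values do not give the amount of miR-196a.

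Cofactors and regulators of HOX genes had list medians near 0. Of 17 measured TALE genes none was at least 1.5-fold different, against 1.62% of all genes. At so low a share this count is no result about the list. The median was -0.01, beside 0.00 over all genes. PBX3 was at 10.43 on BSA and 10.25 on rLCC111, MEIS2 at 9.17 and 9.25, and PKNOX1 at 8.92 and 8.80, while MEIS1 was below the limit at 6.53 and 6.57. The largest differences in this list were at PBXIP1, a PBX-binding protein, with 0.32, at TGIF1, a repressor, with -0.26, and at PBX3, with -0.18. PBX, MEIS and PKNOX genes, the 3 kinds of HOX partner in the list, thus each had a member above the limit on both coatings. As 66.7% of all genes passed the limit on both arrays, this does not set them apart.

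Among 29 Polycomb subunits, JARID2 was the 1 gene at least 1.5-fold different, against 1.08% of all genes at least 1.5-fold higher. JARID2, which guides the Polycomb repressive complex that methylates histone H3 at lysine 27, had 9.63 on BSA against 10.33 on rLCC111, a log2 difference of 0.70 and a fold of 1.63. EZH2, the methyltransferase of that complex, was at 10.82 and 10.59, a difference of -0.23, EED had 0.19 and SUZ12 0.04. The list had a median of -0.08, with 17 genes below 0 and 12 above. None of the 25 Trithorax and demethylase genes passed 1.5-fold, against 1.62% of all genes in either direction, and their median was 0.02. KDM5B, a histone demethylase, had the largest difference in that list, 0.47, followed by KMT2C, a histone methyltransferase, with 0.31 and KDM5A with 0.26, and KMT2A, which maintains HOX expression in blood cells, had 0.21. Of 12 factors of chromatin loops, CTCF, which forms boundaries within HOX clusters, had -0.29, RAD21 -0.23 and STAG2 -0.20, with a median of -0.05.

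Retinoic acid switches on HOX genes at the head end of the clusters in embryos. Of 17 measured genes of this pathway 9 were above the limit on the brighter array, against 68.8% of all genes. None was at least 1.5-fold different, against 1.62% of all genes, so neither count sets the pathway apart. ALDH1A3, which makes retinoic acid, had 7.80 on BSA against 8.09 on rLCC111, a difference of 0.29, NRIP1, a corepressor that the pathway induces, had 0.24, and DHRS3, which the pathway also induces, 0.16. The median was -0.01 over all 17 genes and 0.07 over the 9. RARB and CYP26A1, both direct targets of retinoic acid receptors, were below the limit on both arrays, at 5.53 and 5.41 and at 5.71 and 5.69.

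Other genes of position were read from lists of limb and trunk factors and of head factors. None of 31 limb and trunk factors was at least 1.5-fold different, against 1.62% of all genes, and the median was 0.01. At so low a share this count is no result about the list. PAX9, a gene of vertebrae and teeth, had 8.18 on BSA against 7.70 on rLCC111, a difference of -0.48, FOXC2, of the paraxial mesoderm, at 9.42 and 9.85, a difference of 0.44, and FOXD1 at 10.38 and 9.97, a difference of -0.40. PITX1, which marks the hindlimb as HOXC10 does, was at 8.29 and 7.96, a difference of -0.32. TBX4 and TBX5, the hindlimb and forelimb factors, were both below the limit, at 6.57 and 6.53 and at 6.44 and 6.59. Of 18 head factors none passed 1.5-fold, against the same 1.62%, and the median was -0.03. The largest differences above the limit were at DLX2, -0.34, DLX1, -0.26, and TCOF1, -0.21. SIX2, a gene of the face and kidney, was above the limit at 9.80 and 9.88.

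**Figure D4:**
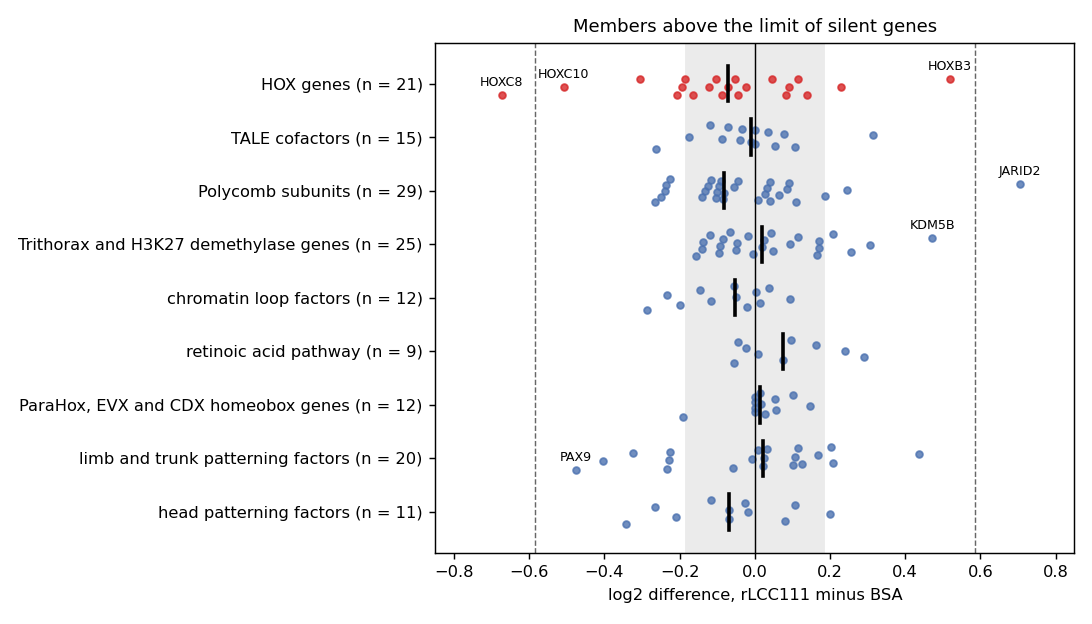
Log2 difference, rLCC111 minus BSA (horizontal), of each gene (points) at or over 6.63 on its brighter array, by list (vertical), with the number of such genes; black bars are medians, the grey band is 1 SD of the receptor genes, 0.18, and dashed lines mark 1.5-fold. Only HOXC8 and JARID2 lie beyond the dashed lines. The ParaHox list as plotted includes GDF11, which is not a homeobox gene.

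The label of the line was checked against markers. On the brighter array 68.8% of all genes were above the limit, and so were 9 of 13 mesenchymal markers, a like share, so this count does not bear on the label. Among them were VIM at 13.05 on BSA and 12.98 on rLCC111 and CD44 at 13.10 and 13.11, while THY1, S100A4, PRRX1 and NT5E were below it. Among markers of other cells, PECAM1, CDH5, CDH1, EPCAM, PTPRC and CD3E were below the limit on both arrays, whereas TIE1, an endothelial receptor, was at 10.55 and 10.39. Of all markers of other cells, 3 of 8 endothelial, 4 of 9 epithelial, 4 of 7 blood and 4 of 10 HEK-293 or neural genes were above it, to be read against the same 68.8%. None of the 47 markers of the 5 lists was at least 1.5-fold different, against 1.62% of all genes. The largest differences were at ESAM, an endothelial adhesion protein, with -0.49, at FN1, fibronectin, with 0.49, and, in the last list, at NEFL, a neurofilament gene, with -0.42 and LHX1 with 0.40, and the part of other cells in the HOX differences was not tested.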

How the data were processed

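Total RNA from HT1080 cells kept for 24 h on BSA or rLCC111 was hybridised to 1 human gene array per coating. The deposited log2 values are gene levels that the authors computed from the scans by RMA in Affymetrix Expression Console (version not given in the sources used here). RMA corrects the background, normalizes between arrays and summarises probes. Exactly the same value, with no tolerance, stands on both arrays for 2460 of 33297 sequences (7.39%) and for 1325 of 18417 genes (7.19%), no HOX gene among them. The deposited medians were 7.04 on BSA and 7.12 on rLCC111 and were not rescaled.

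Sequences were named from the platform annotation, updated through gene identifiers to RefSeq: 19460 carry 1 symbol, 1754 several and 12083 none. A gene was given by its one-symbol sequence with the highest mean level. The methods name limma, which with 1 array per coating has no residual degree of freedom, so it was not run. Members and all 15 lists were chosen with earlier results of these data known. The genes named were all HOX genes measured, the cluster noncoding RNAs measured, the flanking genes (those of HOXA, HOXB and HOXD by range), the markers above the limit with the largest differences and, in the other lists, members at least 1.5-fold different or the 3 largest differences above the limit; VIM, CD44, TIE1, the markers below the limit, MEIS1, MEIS2, PKNOX1, EZH2, EED, SUZ12, KMT2A, RARB, CYP26A1, PITX1, TBX4, TBX5, SIX2, GSX1, GBX2 and MNX1 were added after their values were seen, as was the limit at GBX2. Alternatives were median centring, lowess (span 0.2), quantile normalization, the mean over sequences, sequences with several symbols, filters on dim genes and other limits. The count of 2-fold genes was tested on simulated data. These held known changes larger than 2-fold, so the test covers the counting and not the spread between cultures. Calculations used Python 3.11.15, numpy 2.4.6, pandas 2.3.3, statsmodels 0.14.6 and matplotlib 3.10.9.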

Additional observations from a re-analysis of the deposited data

How the results depend on the processing

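Of the counts and list medians recomputed under the alternatives, 193 stayed within 0.18 log2 or, for counts, within 1.5 times, and 3 counts did not. The deposited medians were all smaller in size than 0.18, so a median could change sign and still count as unchanged. After median centring that of groups 1 to 3 went from 0.01 to -0.07, and that of all HOX genes from -0.05 to -0.13. Median centring, which lowers every difference by 0.08, raised the number of HOX genes at least 1.5-fold lower from 1 to 2, HOXC10 being the second at -0.59. An alternative chosen after seeing the data set the limit at GBX2, the highest of the 13 other homeobox genes. By this limit 5 HOX genes were above it by the brighter array and 3 on both arrays, in place of 21. None of the 135 recomputed differences of single HOX genes moved by more than 0.088 log2. As no HOX gene had a second sequence, the mean over sequences could not change these differences. Adding sequences with several symbols changed none of them, and median centring lowers each by the same 0.08. HOXC8 ranged from -0.75 to -0.67, HOXC10 from -0.59 to -0.51 and HOXB3 from 0.44 to 0.52. Relative to the median of all genes, the HOXC median was -0.16 as deposited, after median centring and after lowess, and -0.18 after quantile normalization. With the shared HOXC4 and HOXC6 sequence counted for both genes it was -0.11. No HOX gene was 2-fold different under any of the alternatives run. No paired analysis was possible because each coating has 1 array and the labels give no replicate numbers. Signal over background limits 6 of 27 HOX genes, which were at or below the limit of silent genes, and the spread between cultures is unknown.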
